A study of Mus musculus with 14 samples.

Results

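Of the 102600 H3K27ac peaks listed for mouse cells after 4 days of retinoic acid, 1613 (1.57%) were broad domains that had no broad counterpart in embryonic stem cells (ESCs). The members were chosen by the peak lists alone: a peak of the retinoic acid H3K27ac list had to be 10 kb or longer and had to share no base with an H3K27ac peak of 10 kb or longer in ESCs. The retinoic acid list held 2732 such broad peaks in all, and the other 1119, which overlapped a broad ESC peak, are called kept broad domains here. Of the 3194 broad peaks of ESCs, 2064 met no broad peak after retinoic acid and are called lost broad domains. Since measured peak lengths selected the members, the gain of H3K27ac between the 2 cell states is given as a description, without a test.

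H3K4me1, a single methyl group on lysine 4 of histone H3, is laid down at enhancers early and stays on many that are not in use. H3K27ac, an acetyl group on lysine 27, is added by coactivators such as p300 where a regulatory element is at work. Long unbroken stretches of H3K27ac form where several active elements lie close together, and in many cell types they are known to lie near genes of cell identity. Methylation of cytosine in CpG pairs (5mC) is usually high in bulk mouse chromatin, intermediate in distal enhancers and low in CpG-rich promoters. Here both layers were read from the same DNA, because each histone mark was immunoprecipitated from nuclease-digested chromatin and the DNA was then treated with bisulfite.

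All samples derived from R1, an ESC line from a male mouse embryo. ESCs were taken 2 days after removal of the 2i inhibitors, and RA cells after 4 days in 1 µM retinoic acid (RA). Extraembryonic endoderm (XEN) cells were made directly from ESCs over 9 days in 0.1 µM retinoic acid with Activin A. One library per mark was analysed for ESCs and for RA cells, and 2 replicate libraries per mark for XEN cells, with 12147115 to 58803653 CpG counts each. By the study's methods each experiment was done more than once, but whether an ESC or RA file holds a single repeat or pools them could not be settled, which leaves the variation among repeats unknown for those cell states and a difference between them compares 2 libraries, not 2 conditions. The cell states also differ in medium and in days of culture, which cannot be told apart from the retinoic acid. For scale, the 2 XEN libraries of one mark differed over the members by a median of 1.71 points of 5mC (labelled H3K27ac) and 2.45 points (labelled H3K4me1). Throughout, 5mC is methylated over all CpG counts of a domain in percent, intervals are exact 95% binomial intervals that cover counting error only, and the level of a mark is its CpG counts scaled to library size (CPM) and divided by length in kb, from 200-bp bins with at least 4 counts.

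For XEN cells, the deposited files labelled H3K27ac carry H3K4me1 in their names and vice versa, and the sample labels were followed. The measured values go against the labels. The share of counts in kept broad domains was 5.96 and 8.07 times the share in 16945 peaks that carried H3K4me1 alone in both cell states for the H3K27ac libraries of ESCs and RA cells, and 0.948 and 1.40 times for the H3K4me1 libraries. Both sets of peaks were defined by the ESC and RA peak lists, so the order of these ESC and RA ratios was set by that choice and serves only as a scale. XEN libraries did not enter it. In XEN cells this ratio was 2.21 and 2.03 for the libraries labelled H3K27ac but 7.75 and 5.95 for those labelled H3K4me1. XEN results are therefore given for "the library labelled" with a mark, and any direction between the XEN marks turns round if the file names are right.

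The new domains had a median length of 13222 bp, with the middle 50% of them between 11191 and 16997 bp. They covered 25650.5 kb together, which was 9.20% of the length of all RA H3K27ac peaks. The length had a long tail, with 242 domains (15.0%) of 20 kb or more and 18 of 50 kb or more. They lay on every autosome and on X, from 119 on chromosome 2 to 42 on chromosome 12 and 24 on X, and none lay on Y. As a share of the RA H3K27ac peaks of the same chromosome this was 0.972% on chromosome 12, 1.18% on X and up to 2.28% on chromosome 15. Another new domain lay within 50 kb of 734 domains (45.5%), in 289 runs, and no such share was taken over other peaks. Some neighbours were parted by a short gap, such as 284 bp on chromosome 12, so 1 stretch can count as several domains. The longest run held 9 domains over 305 kb of chromosome 3 (positions 27325664 to 27630456, build mm9), and the domains filled 260.3 kb of it. No gene annotation of this build was used, so domains are named by position.

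Most of the regions had carried a mark in ESCs. An H3K27ac peak of ESCs, shorter than 10 kb by the rule, touched 1445 domains (89.6%), an H3K4me1 peak but no H3K27ac peak touched 115 (7.13%), and 53 (3.29%) had neither. These classes count an overlap of any length, and with 10% of the domain's length required they held 1344, 172 and 97 domains. Over all 102600 RA H3K27ac peaks, most of them shorter, the classes held 55592, 17273 and 29735 peaks by any overlap. By the 10% rule they held 54867, 17137 and 30596. The median domain held 2 ESC H3K27ac peaks, 1162 domains (72.0%) held 2 or more, and 1 held 19. The longest ESC H3K27ac peak of a domain had a median of 4081 bp where there was one, and it was 5 kb or longer in 562 domains (34.8%). It was between 9 and 10 kb, just short of the threshold, in 99 domains.

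ESC H3K27ac peaks covered a median of 47.8% of the length of a domain, with the middle 50% of domains between 19.6 and 73.5%. ESC H3K4me1 peaks covered more, a median of 70.9%, and over 90% of the length in 431 domains (26.7%). After retinoic acid H3K4me1 peaks covered a median of 93.5%, and 1078 domains (66.8%) met an H3K4me1 peak of 10 kb or longer, compared with 566 (35.1%) in ESCs. Kept broad domains had 93.1% of their length in H3K4me1 peaks already in ESCs and 89.3% after retinoic acid. Their coverage in ESCs left little room to rise, and they were set apart by their breadth in ESCs, so nothing is read from the contrast with the new domains.

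The 3 RA peaks just inside the length threshold measured 10000, 10002 and 10002 bp, and the 3 just outside measured 9995, 9994 and 9993 bp. Their H3K27ac levels after retinoic acid were 10.3, 2.46 and 1.23 inside and 3.60, 8.92 and 3.95 outside, and their H3K27ac 5mC was 13.6, 38.4 and 77.8% inside and 32.7, 8.50 and 20.2% outside. The peaks on the 2 sides of the threshold thus overlapped in level and in 5mC.

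The level of H3K27ac in the new domains, which the rule used, had a median of 0.905 CPM per kb in ESCs and 3.23 in RA cells. The kept domains went from 4.05 to 4.48 and the lost ones from 3.47 to 1.30. The median log2 ratio of H3K27ac counts over the new domains was 1.34, and 1557 of them (96.5%) rose. In the other 56 the called peak was longer but the counts were not higher.

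**Figure D1:**
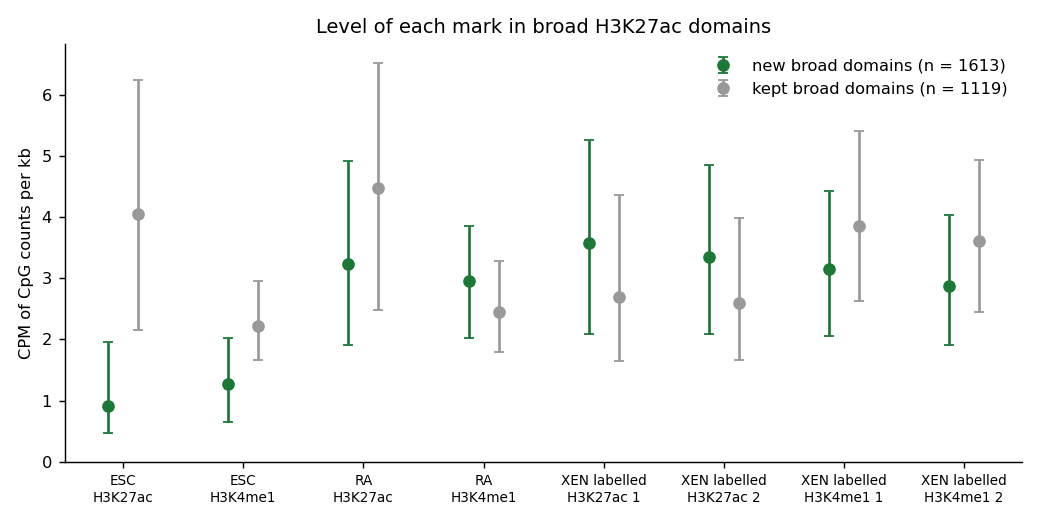
Level of each mark (CPM per kb) in 8 libraries over the 1613 new broad domains (green) and the 1119 kept ones (grey). Points are medians and bars span the middle 50% of domains. The new domains lie lower than the kept ones in both ESC libraries and above them in the H3K4me1 library of RA cells.

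H3K4me1, which the rule did not use, also went up in the new domains. Its median level rose from 1.27 in ESCs to 2.96 in RA cells, and the median log2 ratio of its counts was 0.98, on the scale of log2 CPM with 1 count added to both sums. The ratio was above 0 in 1449 domains (89.8%) and above 2-fold in 797 (49.4%). Over all 102600 RA H3K27ac peaks the median log2 ratio was 0.59 and 67.2% were above 0, and over the kept domains it was 0.14. Scaling to the counts that lay outside every peak moved the median of all peaks to 0.50 and that of the new domains to 0.89. The gain was largest where ESCs had had least: the median log2 ratio was 0.87 in domains with an ESC H3K27ac peak, 2.85 in those with an H3K4me1 peak only and 4.55 in those with neither. A domain without an H3K4me1 peak in ESCs was bound to have a low ESC level, so this order is partly set by the classes.

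5mC on H3K4me1 was higher in RA cells than in ESCs in most of the new domains, as it was in most RA H3K27ac peaks. The median over the domains was 41.9% in ESCs and 58.0% in RA cells, and the median change was 16.7 points, with the middle 50% of domains between 9.78 and 22.8 points. Of the 1608 domains with at least 30 CpG counts in both libraries, 1501 (93.3%) went up and 107 went down. Of all 64232 RA H3K27ac peaks with such counts 88.4% went up, and the median change over them all was 15.2 points. By a Fisher's exact test across all RA H3K27ac peaks (Benjamini-Hochberg adjusted) together with a difference of more than 20 points, 584 domains (36.3%) were called higher and 3 (0.187%) lower. The background over the 64232 peaks tested was 34.9% higher and 0.755% lower, so the share of new domains called was near that of RA H3K27ac peaks in general. Among peaks with at least 300 counts in both libraries, a minimum added after the data were seen, 40.4% of the new domains and 37.4% of all peaks were called higher, and 0 new domains and 0.0350% of all peaks lower. The kept domains were above both, with 62.9% called higher and a median change of 22.4 points. CpGs on one read are not independent, so these tests count more evidence than the libraries hold.

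**Figure D2:**
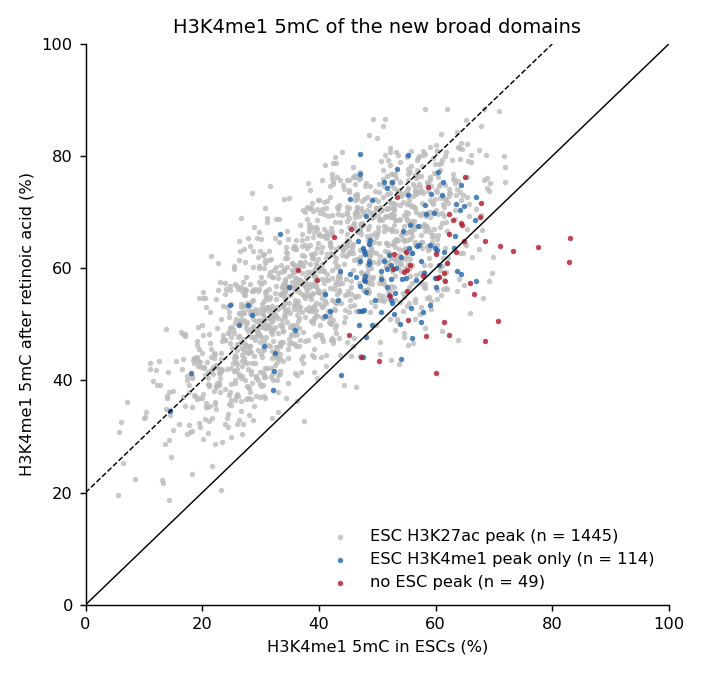
H3K4me1 5mC in ESCs (x axis, %) and after retinoic acid (y axis, %), with 1 point per new domain that had at least 30 CpG counts in both libraries. Colours give the earlier mark in ESCs, the solid line equal values and the dashed line a rise of 20 points. Most points lie above the solid line, and the domains with no ESC peak lie around it.

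On H3K27ac the 5mC of the new domains moved less and in both directions. The median was 44.7% in ESCs and 46.4% in RA cells, and the median change per domain was 5.60 points. As a mean over bins with at least 30 counts in both libraries it was 3.12 points. Of 1611 domains with at least 30 counts in both H3K27ac libraries, 1160 (72.0%) were higher in RA cells and 451 lower, and over all RA H3K27ac peaks 76.5% were higher. By more than 20 points, 144 domains (8.94%) were higher and 67 (4.16%) lower, beside 23.2 and 3.12% of the 53707 peaks with enough counts. The rule used this contrast, so nothing is read from these shares. Pooled over all counts, where stretches with more CpG counts weigh more, H3K27ac 5mC was 25.0% (24.9 to 25.0%) in ESCs and 35.9% (35.84 to 35.96%) in RA cells.

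The domains were then described by their earlier marks. This split uses the ESC H3K27ac peaks of the rule, so its H3K27ac values are a description and nothing is read from them. In the 1445 domains that had an ESC H3K27ac peak, the median change on H3K27ac was 6.48 points up and 22.5% fell, beside 17.0% of all RA H3K27ac peaks of that class. In the 115 domains with an ESC H3K4me1 peak only, H3K27ac 5mC had a median of 62.4% in ESCs and 49.7% in RA cells, and 86 of 115 (74.8%) fell, beside 41.4% of all peaks of that class. In the domains with neither peak it was 63.3% in ESCs and 52.1% in RA cells, and 40 of the 51 with enough counts (78.4%) fell, beside 60.9% of all such peaks. The ESC values there rest on few counts, a median of 147 and 93 per domain, from chromatin with no called H3K27ac peak. The median change on H3K4me1 was 17.6 points with an ESC H3K27ac peak, 8.50 points with an H3K4me1 peak only and 0.77 points with neither, and over all RA H3K27ac peaks of these classes it was 17.4, 11.7 and 4.94 points. With 10% of the length required of a peak, the domains' values were 17.7, 11.2 and 3.72 points. All 3 classes came close together in RA cells, with median H3K4me1 5mC of 57.5, 59.5 and 59.8%. No test was run between the classes.

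Within bins of 200 bp the picture was uneven. In the H3K4me1 libraries 16968 bins inside the new domains had at least 30 counts in both cell states, and 5844 of them were unmethylated (under 20% 5mC) in ESCs. Of those, 42.1% stayed under 20% and 43.9% went over 30% after retinoic acid, compared with 30.03 and 57.6% in kept domains. In the other direction, 697 of 11124 bins at 20% or more in ESCs (6.27%) fell under 20%. On H3K27ac, 86.0% of the 4945 unmethylated bins stayed under 20%. Only 5444 bins were covered in both H3K27ac libraries, and 4945 of them were already under 20% in ESCs, so these shares describe a small part of the domains.

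The marks of RA cells were compared within each domain. The H3K27ac libraries of RA cells and ESCs also gave the peak lists of the rule. The shares that follow are therefore a description, and nothing is read from their distance to the background. 5mC was higher on H3K4me1 than on H3K27ac in 1403 of 1613 domains (87.0%), by a median of 10.3 points, and in 71.5% of all RA H3K27ac peaks with enough counts, by a median of 5.48 points. By the same call, 442 domains (27.4%) had higher 5mC on H3K4me1 and 0 had higher 5mC on H3K27ac. The background over 68398 peaks was 11.0 and 0.387%. The background depended on coverage, and among peaks with at least 300 counts on both marks 38.0% of all peaks and 28.8% of the new domains were called higher on H3K4me1, with 0.00% of these peaks higher on H3K27ac. Of the kept domains 54.5% were called higher at this coverage. In ESCs the same regions went both ways, with 5mC higher on H3K4me1 in 765 and lower in 842 of 1607 domains. The median difference was 0.85 points lower on H3K4me1, with the middle 50% of domains between -7.53 and 11.2 points. Pooled over all counts, where stretches with more CpG counts weigh more, ESC 5mC was higher on H3K4me1, at 36.3% against 25.0% on H3K27ac. By the same call, 149 were higher (9.27%, background 2.26%) and 13 lower (0.809%, background 1.99%). Among peaks with at least 300 counts on both marks in ESCs, 148 of 1003 new domains (14.8%) were called higher on H3K4me1, beside 7.90% of all 11061 such peaks, and 0 were called lower, beside 0.00%.

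The new domains were not alike in 5mC on H3K27ac after retinoic acid, which spanned 2.60 to 87.3%. In 281 domains (17.4%) it was under 20%, in 480 (29.8%) it was over 60%, and the other 852 lay between. Of the 74319 RA H3K27ac peaks with at least 30 counts in this library, 16.2% were under 20% and 45.5% over 60%. The share of new domains under 20% was thus near that of peaks in general. The domains under 20% had the highest median H3K27ac level after retinoic acid, 6.59 against 1.58 for those over 60%. In ESCs they had a median H3K27ac 5mC of 7.31% and a level of 3.72. The level is in CpG counts per kb, so the CpG content of a domain enters it, which was not tested. The RA level also comes from the library that formed the groups. In the domains under 20%, H3K4me1 5mC was 42.5% in RA cells, 29.9 points above H3K27ac by the median difference. Of the 442 domains called between the marks, 254 were among them. In the domains over 60% both marks were about equally methylated, with medians of 71.0% on H3K27ac and 71.2% on H3K4me1, and 0 of them were called. The difference between the marks contains the value that formed these groups, so its order across them is a description. XEN libraries did not enter the grouping. The order was seen there in all 4 libraries, with medians of 21.4 and 21.4% (under 20%), 53.3 and 54.5% (between) and 78.5 and 78.9% (over 60%) in the libraries labelled H3K4me1, and of 53.7 and 54.1%, 63.3 and 62.9%, and 77.9 and 77.6% in those labelled H3K27ac.

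**Figure D3:**
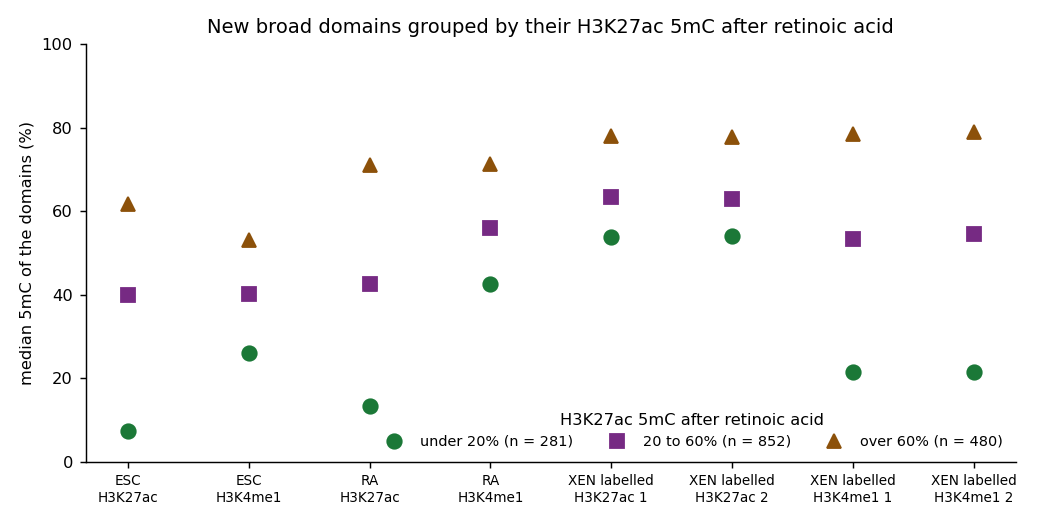
Median 5mC (%) in 8 libraries of the new domains grouped by their H3K27ac 5mC after retinoic acid (under 20%, 281 domains; 20 to 60%, 852; over 60%, 480). The 3 groups keep their order in each library, and lie closest together in the libraries labelled H3K27ac of XEN cells.

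The 5 domains with the largest rise of H3K4me1 5mC were named among 1354 with at least 300 counts in both H3K4me1 libraries. At chr7:29353279-29364286 it went from 28.6% (26.5 to 30.8%) in ESCs to 73.4% (70.0 to 76.7%) in RA cells, and H3K27ac 5mC from 21.8 to 70.9%. At chr1:155061171-155083426 it went from 31.6 to 74.6%, and at chr11:104278961-104289511 from 26.6 to 69.1%, again with H3K27ac 5mC rising alongside, to 75.8 and 69.9%. In these 3 domains the counts of both marks changed little or fell, with log2 ratios of -1.04, 0.15 and -0.56 for H3K4me1 and of -0.44, 0.46 and -0.41 for H3K27ac. The other 2 rose far less on H3K27ac than on H3K4me1. At chr16:45834181-45846509 H3K4me1 5mC went from 21.6 to 62.2% but H3K27ac 5mC only from 13.0 to 22.1%, while the H3K27ac counts rose by 3.08 on the log2 scale. At chr10:96078076-96097087 the values were 30.7 to 70.7% on H3K4me1 and 11.8 to 27.4% on H3K27ac. By the labels the contrast was the other way in XEN cells at these 2 domains, and by the file names it was the same, with 29.4 and 28.4% at the first and 39.8 and 50.7% at the second in the libraries labelled H3K4me1, against 70.1 and 69.3%, and 77.0 and 76.7%, in those labelled H3K27ac.

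The 5 largest falls among the same 1354 domains were smaller. At chr14:65142007-65152338 H3K4me1 5mC went from 63.8% (58.3 to 69.1%) to 47.2% (44.9 to 49.4%) and H3K27ac 5mC from 64.8 to 38.6%. At chr2:13396466-13428862 the values were 56.1 and 46.8% on H3K4me1 and 56.9 and 31.5% on H3K27ac. The falls at chr9:71591434-71602394, chr12:31928504-31943596 and chr5:92714777-92726113 were of 9.01, 8.52 and 7.60 points on H3K4me1, and H3K27ac 5mC fell by 14.8, 25.0 and 16.6 points there. All 5 gained counts of both marks, with log2 ratios of 1.13 to 2.98 for H3K4me1 and 1.92 to 3.92 for H3K27ac. None of the 5 passed the difference of 20 points on H3K4me1. The XEN libraries were at or below 54.5% in each of these 5 domains.

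The 10 longest new domains held many counts, and their intervals cover counting error only. The longest, of 234 kb at chr8:11194072-11428331, held 3699 to 58507 CpG counts in each library. In ESCs 10 H3K27ac peaks covered 6.92% of it and H3K4me1 peaks 34.8%, and its levels rose from 0.461 to 4.86 for H3K27ac and from 0.883 to 4.66 for H3K4me1. Its H3K4me1 5mC went from 40.3% (39.5 to 41.2%) to 62.8% (62.4 to 63.3%), but its H3K27ac 5mC only from 45.7% (44.1 to 47.4%) to 48.6% (48.0 to 49.1%). The XEN levels were 9.22 and 7.97 in the libraries labelled H3K27ac and 4.82 and 4.55 in those labelled H3K4me1. The XEN 5mC was 69.7 and 69.0% in the libraries labelled H3K27ac and 63.1 and 63.4% in those labelled H3K4me1.

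The next 2 in length, chr17:68025980-68177862 and chr1:191558816-191708959, differed on H3K27ac. At the first, H3K27ac 5mC was 53.3% (51.5 to 55.1%) in ESCs and 50.5% (49.8 to 51.3%) in RA cells, and at the second 47.1% (45.6 to 48.7%) and 60.3% (59.6 to 60.9%). Both rose on H3K4me1, from 40.6 to 60.7% and from 44.6 to 63.7%. At the chromosome 1 domain all 4 XEN libraries were close together, between 73.6 and 74.9%.

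The other 7 of the longest 10 were chr3:27502720-27613217, chr11:18810896-18903803, chr12:31943881-32019141, chr17:78737393-78812239, chr5:141236607-141308454, chr10:120846031-120917651 and chr6:37322723-37393820. H3K4me1 5mC rose in each, by 24.6, 21.0, 20.3, 10.1, 14.9, 20.7 and 20.3 points in that order. H3K27ac 5mC changed by 13.0, 15.3, 1.99, -4.14, 7.59, 17.2 and 6.14 points. The domain at chr17:78737393-78812239, which rose least, had the least covered start in ESCs, with H3K4me1 peaks over 14.1% and H3K27ac peaks over 5.78% of its length, and the highest ESC H3K4me1 5mC of the 10 at 57.4%. The domain at chr10:120846031-120917651 was at the other end, with 92.7 and 64.7% covered. The domain at chr12:31943881-32019141 lies 284 bp from one of the 5 largest falls, chr12:31928504-31943596, and their H3K4me1 5mC went opposite ways, from 43.5 to 63.9% and from 56.0 to 47.5%. On H3K27ac the longer one stayed at 39.5 and 41.5% while the shorter went from 59.4 to 34.3%.

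Domains at the ends of the ESC H3K4me1 coverage differed in the same way. The 3 longest of those wholly covered by ESC H3K4me1 peaks were chr1:169160899-169194966, chr9:65614621-65646910 and chr18:7874351-7899089. Their H3K4me1 counts changed by -0.10, 0.84 and 0.53 on the log2 scale, and H3K4me1 5mC rose from 35.0, 42.6 and 45.2% to 72.5, 54.2 and 73.5%. The 3 longest with no ESC H3K4me1 peak, which also had no ESC H3K27ac peak, were chr3:145908335-145929986, chr15:66968443-66988358 and chr2:13266264-13285912. Their H3K4me1 counts rose by 4.33, 4.80 and 4.06 on the log2 scale, from only 301, 89 and 92 CpG counts in ESCs. Their H3K4me1 5mC was 63.5% (57.7 to 68.9%), 60.7% (49.7 to 70.9%) and 63.0% (52.3 to 72.9%) in ESCs and 62.9, 58.4 and 68.6% in RA cells, each within the ESC interval. On H3K27ac the first fell from 68.7% (62.0 to 74.8%) to 52.1% (50.3 to 53.9%). The second had 65.7% (58.0 to 72.8%) in ESCs and 54.9% (51.6 to 58.2%) in RA cells, with intervals that just overlap, and the third did not move beyond counting error, at 71.2 and 71.4%.

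Both marks stood out over the domain and dropped at its ends. In RA cells the median level inside was 3.23 for H3K27ac and 2.96 for H3K4me1, against 0.968 and 1.22 over the 10 kb on either side, and 86.4 and 90.3% of domains were higher inside. The edges of the H3K27ac peak were set by the RA H3K27ac library itself, but not by the other 7. In ESCs 71.5 and 72.0% of domains were already higher inside, at medians of 0.905 against 0.521 and 1.27 against 0.814. Pooled 5mC, here taken like the levels from bins with at least 4 counts and so not equal to the pooled values over all bins, was lower inside than on the flanks in each of the 8 libraries, at 35.5 against 44.7% on H3K27ac and 56.7 against 60.9% on H3K4me1 in RA cells. In ESCs the values were 22.4 against 32.3% and 35.8 against 39.8%.

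**Figure D4:**
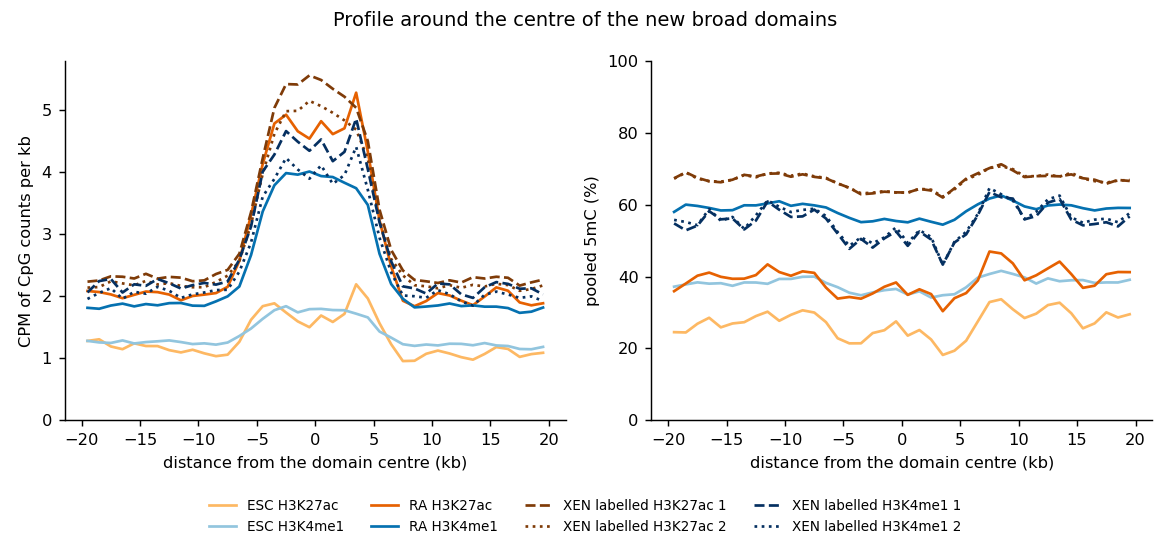
Level (left, CPM per kb) and pooled 5mC (right, %), both from bins with at least 4 counts, in 1-kb windows up to 20 kb from the centre of the 1613 new domains, in 8 libraries. The RA and XEN libraries form a plateau over the domain, and the ESC libraries a low rise.

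In XEN cells, reached by another route and at a lower dose of retinoic acid, most of the new domains had levels above those of ESCs. XEN peaks were not used here. All 4 XEN libraries lay above both ESC libraries in level in 1145 domains (71.0%) and below both in 10. The share was 30.3% over all RA H3K27ac peaks and 17.2% over the kept domains. The median XEN level was 3.58 and 3.35 in the libraries labelled H3K27ac and 3.15 and 2.88 in those labelled H3K4me1, next to 3.23 and 2.96 in RA cells. Since no XEN library was used to choose the members, these levels are independent of the rule on the XEN side, but the low ESC level is not. Inside against flanks, 87.5 to 88.9% of domains were higher in each XEN library.

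Between the XEN marks, edgeR's quasi-likelihood test of the total CpG counts (2 libraries against 2, Benjamini-Hochberg adjusted over 88316 peaks) called 322 domains (20.0%) higher in the libraries labelled H3K27ac and 566 (35.1%) higher in those labelled H3K4me1. The background was 19.4 and 25.0%. Of the kept domains, 8.85 and 66.0% were called. In the new domains the median log2 ratio of labelled H3K27ac over labelled H3K4me1 was -0.12, and in the kept ones -0.77. The first count rests on both libraries labelled H3K27ac, falling to 142 and 202 without the one or the other. In all, 4 domains held XEN bins of over 1000 counts, and the counts of calls without such bins were 321 and 566.

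The domains with the highest ratio of labelled H3K27ac to labelled H3K4me1 were chr17:47584409-47602721, chr6:84517966-84546716 and chr6:52120187-52134092, with fitted log2 ratios of 2.68, 2.49 and 1.92 (edgeR adjusted p = 1.49e-05, 3.27e-05 and 0.0011). All 3 carried both marks in RA cells, at H3K27ac levels of 3.68, 5.91 and 6.70. In XEN cells the labelled H3K27ac levels were 4.75 and 4.16, 2.49 and 2.28, and 2.78 and 2.47, but the labelled H3K4me1 levels were between 0.286 and 0.673. The last 2 domains were low in 5mC in RA cells, with 16.6 and 9.72% on H3K27ac and 41.9 and 34.3% on H3K4me1.

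The lowest ratios were at chr5:34232283-34244253, chr12:111885695-111898711 and chr7:140847081-140859649, with fitted log2 ratios of -5.27, -5.35 and -4.69 (edgeR adjusted p = 1.05e-04, 1.57e-05 and 3.04e-04). In these 3 domains RA cells had H3K27ac with almost no H3K4me1, at levels of 0.666, 2.02 and 0.882 against 0.0582, 0.0749 and 0.0886, and no RA H3K4me1 peak. In XEN cells the counts sat in the libraries labelled H3K4me1, with 142 to 586 CpG counts against 4 to 52 in those labelled H3K27ac. Their RA H3K27ac 5mC was 83.3% (78.1 to 87.6%), 84.1% (81.2 to 86.7%) and 74.2% (69.1 to 78.8%), above the upper quartile of 63.3% over all the new domains. Their H3K27ac scores in the peak list were between 140.8 and 158.1, compared with a median of 363.7 in the domains with an ESC H3K27ac peak.

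The 5mC of the new domains in XEN cells had medians of 65.7 and 65.4% in the libraries labelled H3K27ac and 57.0 and 58.3% in those labelled H3K4me1. Over all RA H3K27ac peaks with at least 30 counts the medians were 64.0 and 64.4%, and 61.5 and 64.0%. By the labels, both libraries labelled H3K27ac lay above the RA H3K27ac value in 96.5% of the domains, and both labelled H3K4me1 lay above the RA H3K4me1 value in 42.3%. With the marks crossed, as the file names have them, the shares were 90.2% for the libraries labelled H3K27ac above RA H3K4me1 and 91.9% for those labelled H3K4me1 above RA H3K27ac. The libraries labelled H3K4me1 were spread more widely, from 1.64 to 92.6% in the first and 1.88 to 91.9% in the second. There 122 and 123 domains (7.56 and 7.63%) were under 20%, compared with 0 and 0 in those labelled H3K27ac. Of all RA H3K27ac peaks with at least 30 counts, 18.6 and 16.6% were under 20% in the libraries labelled H3K4me1 and 2.52 and 2.08% in those labelled H3K27ac. In RA cells it was the H3K27ac library that had the wide spread and the 281 domains under 20%, and 2 domains were under 20% on H3K4me1. Across the 1613 domains, which share their libraries and their CpG content, Spearman's rho of 5mC between the XEN libraries labelled H3K4me1 and RA H3K27ac was 0.95 and 0.96, and with RA H3K4me1 0.87 and 0.87. For the libraries labelled H3K27ac it was 0.82 and 0.82 with RA H3K27ac and 0.91 and 0.92 with RA H3K4me1.

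**Figure D5:**
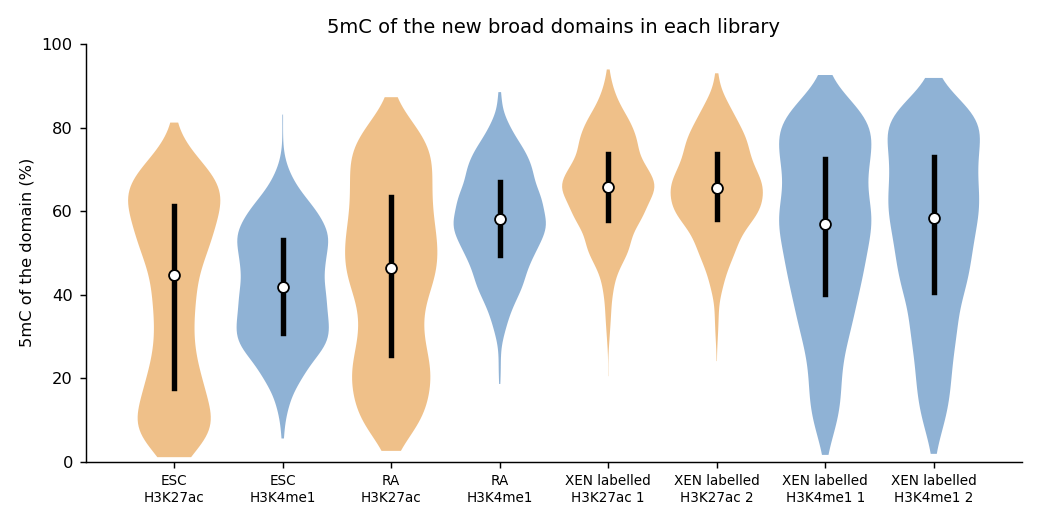
Distribution of 5mC (%) over the new broad domains with at least 30 CpG counts in each of 8 libraries. Circles are medians, black bars the middle 50% of domains, and colours the labelled mark (H3K27ac orange, H3K4me1 blue). Values under 20% make up 28.2 and 17.4% of the domains in the H3K27ac libraries of ESCs and RA cells. In XEN cells they make up 7.56 and 7.63% in the libraries labelled H3K4me1, next to 4.91% in the H3K4me1 library of ESCs.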

How the data were processed

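The authors aligned bisulfite reads to mm9 (Bismark, Bowtie), dropped reads whose CpGs were of mixed state, counted CpGs in 200-bp bins and called peaks with HOMER. The deposited bin files hold raw counts of methylated and unmethylated CpGs. The deposited peak lists hold each peak's length in bp and a HOMER score. In the ESC and RA files the fourth column is methylated, in the XEN files the fifth, read from the columns' 5mC on the mitochondrial genome, which was 6.44% or less in each library. XEN files list only bins with 4 or more counts. Input and H3K36me samples and the single-cell tables were not used here.

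Counts of the bins that a peak touches were summed per peak over the whole RA H3K27ac list. Pairs of libraries were compared by 2-sided Fisher's exact tests (scipy 1.17.1) on peaks with at least 30 CpG counts in both, and called at an adjusted p under 0.05 and a difference over 20 points. XEN marks were compared with edgeR 4.0.16 (TMM, filterByExpr, quasi-likelihood test) in R 4.3.3. The Fisher call for H3K4me1 5mC and the edgeR test were tried on simulated data. The first recovered 98% of 200 changes of 40 points and called 1 unchanged peak. The second recovered 72% of 200 changes of 2-fold and called 6 unchanged peaks. XEN replicates are numbered in the labels, with no statement of separate cultures, so their p-values may measure technical spread only. For ESCs and RA cells 1 file per mark was analysed, with no separate repeats. The deviations of the XEN libraries with the same number had a correlation of -0.0057 across peaks, so the numbers were not taken as pairs.

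The members, lists and tests were chosen with earlier results of these data known. Named domains were the 10 longest, the 5 largest rises and 5 largest falls of H3K4me1 5mC with at least 300 counts in both libraries, the 3 most and 3 least covered by ESC H3K4me1 peaks (ties by length), the 3 highest and 3 lowest XEN ratios, and 3 peaks on each side of the length threshold. Starts are 1-based. Alternatives changed the length, the overlap, the score, count minimums, bin rules, the scaling, the test and the libraries used.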

Additional observations from a re-analysis of the deposited data

Results flagged for a closer look

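The difference in 5mC between the marks had opposite signs in RA and XEN cells, by the labels. In RA cells 5mC of the new domains was a median of 10.3 points higher on H3K4me1 than on H3K27ac. In XEN cells the library labelled H3K4me1 was lower than the one labelled H3K27ac, by a median of -7.33 points in replicate 1 and -5.89 points in replicate 2, and it was lower in 81.0 and 76.9% of the domains. The difference between the cell states was not tested, since RA cells have 1 library per mark, and its direction turns round with the file names.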

How the results depend on the processing

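The number of new domains followed the length chosen, with 726 at 15 kb and 2523 at 8 kb in both lists. Domains higher on H3K4me1 in RA cells numbered 117 at 30 points, and the 3 lower ones became 0 at 30 points, 1 at 60 counts and 0 at 300 counts. The 13 domains lower on H3K4me1 than on H3K27ac in ESCs also became 0 at 300 counts, a setting chosen after seeing the data. The median H3K4me1 change was 16.4 points as a mean over bins with 30 counts and 17.2 points over bins with 4 or more, and the H3K27ac change 3.12 and 6.83 points. The H3K4me1 log2 ratio was 0.89 when scaled to counts outside every peak. As a mean over bins with 30 counts, XEN 5mC was 64.1% (labelled H3K27ac) and 40.4% (labelled H3K4me1). In the main setting, over all counts of a domain, the medians were 65.6% (labelled H3K27ac) and 57.7% (labelled H3K4me1). Without 1 XEN library these main medians ranged from 65.4 to 65.7% and from 57.0 to 58.3%. With 10% of the length required, 97 domains had neither ESC mark. Taking the XEN marks from the file names, chosen after seeing the data, exchanged the 2 counts, to 566 and 322. Leaving out 1 library, where the lone library is assumed to vary like the others, gave 142 to 290 domains higher in those labelled H3K27ac and 384 to 557 in those labelled H3K4me1. With the replicate block the counts were 327 and 563, and DESeq2 gave 333 and 634. The cause of these changes was not tested. Depth limits the ESC values of domains with no ESC peak, and without repeats of ESC and RA libraries no spread stands behind their differences.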
